A study of Homo sapiens with 6 samples.

Results

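Ribosome biogenesis factors are the proteins that transcribe, cut, modify and fold ribosomal RNA and join it with ribosomal proteins. A list of 46 such genes was followed in the Ju77 line, derived from a human malignant mesothelioma, by taking every array probe annotated to their symbols and sorting the genes by the step at which they act. Of the 46 genes 42 had at least 1 probe, with 69 probes between them, and 41 were measured, out of 10672 genes measured in all. The probe listed for NPM1 was detected on none of the 6 arrays, and no probe was listed for WDR43, GNL3, DDX18 and EBNA1BP2.

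The arrays hold 3 samples of Ju77 cells labelled resistant to ADI-PEG20 and 3 samples of the parental Ju77 cells. ADI-PEG20 is arginine deiminase coupled to polyethylene glycol, which depletes arginine from the medium. Both groups are Ju77 cells and each rests on 1 line. The labels do not say whether the 3 samples of a group were separate cultures, or whether the drug was present when RNA was taken. The p-values thus rest on a sample-to-sample spread that may be technical only, and resistance and other differences of the lines cannot be told apart.

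Making a ribosome starts in the nucleolus, where RNA polymerase I copies the ribosomal DNA into a long precursor. The small subunit processome folds and cuts the part that becomes 18S RNA, and a separate set of factors matures the part that becomes the RNA of the large subunit. Small nucleolar ribonucleoproteins (snoRNPs) guide the chemical marks on both: box C/D particles direct methylation of the ribose and box H/ACA particles direct pseudouridylation. In growing cells many of these genes are transcribed with the help of MYC, and their output follows nutrient supply.

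All values are normalised log2 intensities, and all differences are resistant minus parental. A level can be compared between samples for a probe, not between probes. Mean raw probe intensity was 415 to 454 on the resistant arrays and 470 to 499 on the parental arrays, and 19024 to 20113 probes were detected per array. Correlations between arrays over all measured genes were 0.993 to 0.996 within a group and 0.962 to 0.965 between groups. Of 11 mesothelial markers with a probe 6 were detected throughout the resistant arrays and 7 throughout the parental arrays. Keratin 5 (KRT5) and intelectin 1 (ITLN1) were detected on none. CALB2 was higher in resistant cells by 2.74 (limma adjusted p = 1.87e-06). PDPN, detected on 1 resistant array, was lower (difference -2.38, limma adjusted p = 5.05e-05). KRT19, LRRN4 and BNC1 were also lower (differences -0.29, -0.79 and -0.61), and WT1 and MSLN did not pass an adjusted p of 0.05. Of the other markers with a probe, 6 of 9 leukocyte, 6 of 8 fibroblast and 6 of 6 endothelial markers were detected on no array, among them PTPRC, CD3E, DCN and LUM. CD68, on the leukocyte list, and MFAP5, on the fibroblast list, were detected on all 6 arrays and were higher in resistant cells by 0.25 and 3.06 (limma adjusted p = 0.0452 and 7.92e-07). FBLN1, also a fibroblast marker, was at background on every resistant array and above it on every parental array. The part of these genes in the results below was not tested.

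Most of the measured ribosome biogenesis factors were called lower in the resistant cells, and none was called higher. Of the 41 measured factors 25 fell, 0 rose and 16 did not pass the threshold of 0.05 on the limma adjusted p over all 10672 genes, where 23% of all genes were called lower, 22.3% higher and 45.3% in either direction. The median difference over the factors was -0.42, beside -0.0039 over all measured genes. On 30 of the 41 factors all 3 resistant values lay below all 3 parental values, and on 1, BOP1, they lay above, where 28.6% and 27.4% of all genes had such separation. The factors were chosen with earlier results of these arrays known, so their direction is a description of the list. In bulk RNA, fewer cells of a type and less RNA per cell cannot be told apart.

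**Figure D1:**
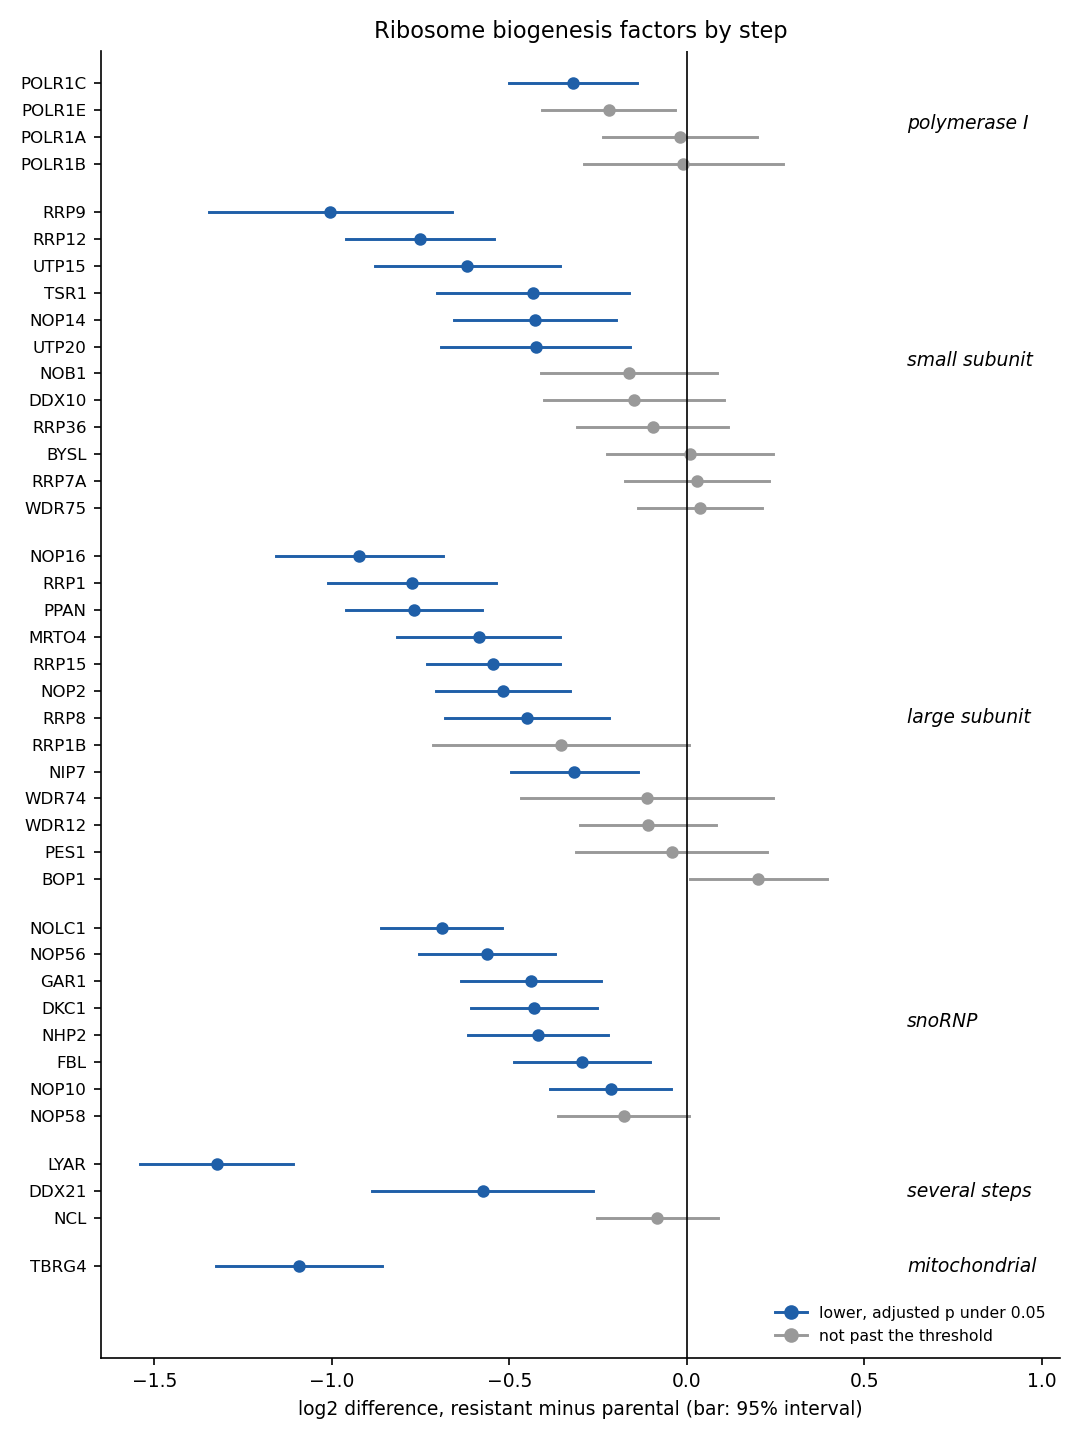
Log2 difference, resistant minus parental, for each of the 41 measured factors, ordered by size within its step. Points are fitted differences from 3 resistant and 3 parental arrays, bars are 95% intervals, blue marks an adjusted p under 0.05 and grey the rest. The 25 blue points all lie left of 0, from LYAR at -1.32 to NOP10 at -0.22, and BOP1 is the point farthest to the right at 0.20.

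By step, the counts ran as follows. Of the 4 polymerase I subunits on the list 1 fell (25%, near the 23% of all genes, median -0.12). Of the small subunit factors 6 of 12 fell (median -0.29). Of the large subunit factors 8 of 13 fell (median -0.45), and of the snoRNP proteins 7 of 8 (median -0.43). Of the 3 measured proteins that act at several steps 2 fell (median -0.58). Whether the steps differed from each other was not tested, and the polymerase I count rests on 4 genes. With median scaling of the arrays in place of quantile normalisation, the median of all genes shifted by -0.15 and the calls over all genes split into 35.4% lower and 13.7% higher. Of the factors 33 were then lower and 0 higher, and their median was -0.52, or -0.37 relative to all genes, against -0.42 relative to all genes under quantile normalisation.

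**Figure D2:**
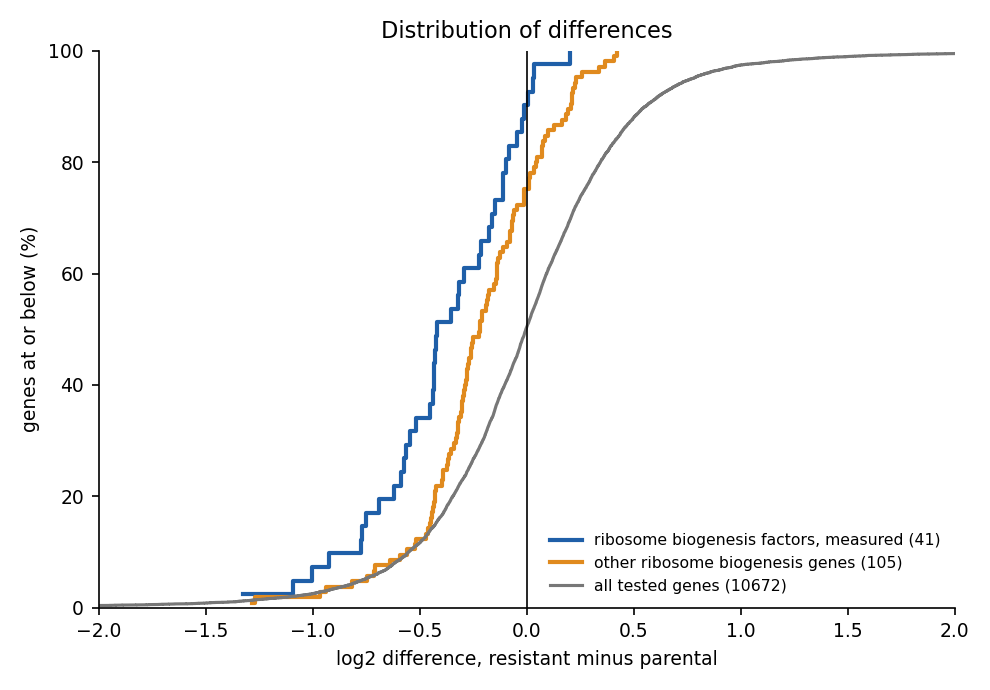
Cumulative share of genes, in percent, against the log2 difference, resistant minus parental, for the 41 measured factors, for 105 other measured ribosome biogenesis genes and for all 10672 measured genes. The axis is drawn from -2 to 2. The curve of the factors lies to the left of the others between -1 and 0.2, with medians of -0.42 for the factors, -0.22 for the other ribosome biogenesis genes and -0.0039 for all genes.

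The promoters of several factors hold the E-box CACGTG, the sequence bound by MYC and its relatives, and 4 are shown because they span the range of the falls. Sequences are from RefSeq on GRCh38.p14, run from 250 bases before to 50 bases after an annotated gene start, and are written 5′ to 3′ on the strand of the gene with the E-box in capitals. The E-box reads the same on both strands.
LYAR, chr4:4289972-4290271, minus strand: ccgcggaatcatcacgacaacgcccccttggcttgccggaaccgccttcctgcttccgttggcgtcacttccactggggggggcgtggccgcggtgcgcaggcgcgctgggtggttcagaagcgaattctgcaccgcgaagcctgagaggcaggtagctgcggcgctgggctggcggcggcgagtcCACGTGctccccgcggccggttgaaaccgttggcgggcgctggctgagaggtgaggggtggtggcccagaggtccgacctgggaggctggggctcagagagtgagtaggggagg
RRP9, chr3:51941855-51942154, minus strand: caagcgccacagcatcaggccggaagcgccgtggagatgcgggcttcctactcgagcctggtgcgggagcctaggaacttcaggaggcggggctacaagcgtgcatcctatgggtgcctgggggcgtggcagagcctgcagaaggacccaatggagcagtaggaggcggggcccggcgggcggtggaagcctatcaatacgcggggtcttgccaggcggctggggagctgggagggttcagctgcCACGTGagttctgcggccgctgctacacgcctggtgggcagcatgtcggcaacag
MRTO4, chr1:19251555-19251854, plus strand: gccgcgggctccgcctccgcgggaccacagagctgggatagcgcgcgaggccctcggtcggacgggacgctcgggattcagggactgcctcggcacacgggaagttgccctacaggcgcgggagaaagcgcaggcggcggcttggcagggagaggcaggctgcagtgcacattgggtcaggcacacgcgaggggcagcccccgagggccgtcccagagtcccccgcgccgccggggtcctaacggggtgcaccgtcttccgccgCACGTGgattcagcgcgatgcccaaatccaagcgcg
NOP10, chr15:34343087-34343386, minus strand: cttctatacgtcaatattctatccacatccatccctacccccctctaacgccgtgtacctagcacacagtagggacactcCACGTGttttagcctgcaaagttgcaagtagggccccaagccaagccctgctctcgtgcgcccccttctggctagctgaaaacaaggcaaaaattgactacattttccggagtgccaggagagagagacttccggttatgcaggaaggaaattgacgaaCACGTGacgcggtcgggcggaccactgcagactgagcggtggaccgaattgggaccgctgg
Counted from 1 at the gene start, with -1 as the base before it, the E-box begins at -64 in LYAR, at -5 in RRP9, at 15 in MRTO4 and at -170 and -11 in NOP10.

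The E-box was then counted over the whole list. Promoter entries were matched for 35 of the 41 measured factors, the exceptions being POLR1E, RRP12, RRP1B, BOP1, NOP58 and NOLC1, and 12 of the 35 (34.3%) held CACGTG in at least 1 window. Among all measured genes with an entry 1118 of 8683 (12.9%) held it. Among the other ribosome biogenesis genes described below 28 of 91 (30.8%) did, so the share is not particular to this list. The E-box was found in 10 of 23 factors that fell (LYAR, RRP9, MRTO4, DDX21, NOP2, GAR1, NOP14, UTP20, FBL and NOP10) and in 2 of 12 that were not called (PES1 and BYSL). UTP20 entered the comparison through the parental group and lost its call in 3 of 14 other settings. FBL lost its call in 3 of 15 and NOP10 in 10 of 15. Whether the called and uncalled factors differed in E-boxes was not tested. Over all measured genes the share with an E-box was 13% among those called lower, 11.9% among those called higher and 13.2% among those not called. An E-box lay within 50 bases of the start in 11 of the 35 factors (31.4%) and in 483 of the 8683 measured genes (5.56%). Of the 91 other ribosome biogenesis genes 20 (22%) had one there. A match is a description of these windows, and binding was not measured. NOP16, with a fall of 0.92, had no match in the windows used.

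Of the 4 RNA polymerase I subunits on the list only POLR1C passed the threshold. Further subunits are given below with the other genes of the pathway. POLR1A, the largest catalytic subunit, had values of 5.25, 5.19 and 5.36 on the resistant arrays and 5.33, 5.39 and 5.14 on the parental arrays, and the groups overlapped (difference -0.02, 95% interval -0.24 to 0.20). POLR1B, the second catalytic subunit, also overlapped, with 6.59, 6.24 and 6.49 in resistant cells and 6.63, 6.32 and 6.41 in parental cells (difference -0.01, 95% interval -0.29 to 0.27). A fall of 0.32, the size seen in POLR1C, lies outside both intervals, but both genes are dim. POLR1A did not pass a stricter filter (detection p under 0.01). Near background a fall can show smaller than in a bright gene such as POLR1C. POLR1C is an assembly subunit that polymerase I shares with polymerase III. It measured 9.89, 9.93 and 9.90 in resistant cells and 10.13, 10.29 and 10.26 in parental cells, with no overlap. The difference was -0.32 (SE 0.08, limma adjusted p = 0.0112), and a second probe also gave -0.32. POLR1E, a subunit that helps the enzyme start on its template, did not overlap either, with 9.6003, 9.78 and 9.64 in resistant cells against 9.93, 9.87 and 9.87 in parental cells, but missed the threshold (difference -0.22, limma adjusted p = 0.0556). It passed in 6 of 15 other settings, among them the deposited log2 values (limma adjusted p = 0.0173).

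Among the small subunit factors RRP9 and RRP12 had the largest falls. RRP9 is the protein specific to the U3 snoRNP at the heart of the processome. RRP9 measured 5.63, 5.89 and 6.02 on the resistant arrays and 6.96, 6.56 and 7.03 on the parental arrays. Every resistant value lay below every parental value, and the mean level was 2.01-fold lower (difference -1.005, SE 0.15, limma adjusted p = 0.00107). RRP9 is a dim gene here, and without background correction its difference was -0.45, with the call kept (limma adjusted p = 7.18e-05), and RRP12 then fell further, by 0.61. RRP12, which in yeast accompanies both subunits out of the nucleus, measured 8.35, 8.46 and 8.40 in resistant cells and 9.25, 9.01 and 9.20 in parental cells. Its groups were also apart (difference -0.75, SE 0.09, limma adjusted p = 3.77e-04).

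UTP15, a member of the UTP-A complex that also supports transcription of ribosomal DNA, measured 6.34, 6.27 and 6.58 in resistant cells and 7.11, 7.09 and 6.85 in parental cells. The groups did not overlap (difference -0.62, SE 0.11, limma adjusted p = 0.00307), and without background correction the difference was -0.31. TSR1, which keeps late small subunit precursors from joining translation, measured 8.80, 8.58 and 8.96 in resistant cells and 9.26, 9.07 and 9.32 in parental cells. Its groups came close, and its difference of -0.43 (SE 0.12, limma adjusted p = 0.0174) lost the threshold without resistant replicate 2 (adjusted p = 0.0547), parental replicate 1 (adjusted p = 0.0572) or parental replicate 3 (adjusted p = 0.0621). A dimmer second probe of TSR1 gave -0.21 and did not pass (limma adjusted p = 0.355).

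NOP14, a processome component, fell by 0.43 (limma adjusted p = 0.00872). A second probe of NOP14 gave -0.28 with overlapping groups and did not pass (limma adjusted p = 0.0841). UTP20, a large scaffold of the processome, was detected on 1 of the 3 resistant arrays and on all 3 parental arrays, so it entered the comparison through the parental group. Its fitted difference of -0.43 (limma adjusted p = 0.0176) is set against a level mostly not above background. The difference was -0.13 without background correction (adjusted p = 0.106) and -0.13 with the deposited log2 values (adjusted p = 0.101), and the call was also lost without parental replicate 2 (adjusted p = 0.0584). Without UTP20, a choice made after seeing the data, 5 of 11 small subunit factors were lower, with a median of -0.16 in place of -0.29, and 24 of 40 factors in all. The other 6 small subunit factors were not called. NOB1, the nuclease that makes the last cut of 18S RNA, had a difference of -0.16, the helicase DDX10 -0.15 and the early factor RRP36 -0.10. BYSL, which joins early and leaves in the cytoplasm, RRP7A and WDR75 lay at 0.01, 0.03 and 0.04. Their 95% intervals were -0.23 to 0.24 for BYSL, -0.17 to 0.23 for RRP7A and -0.14 to 0.21 for WDR75, so falls of the size of RRP9 or RRP12 lie outside them.

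Among the large subunit factors NOP16, a protein of early precursors known in yeast as an assembly factor, fell most. Its brightest probe measured 8.91, 9.07 and 9.20 on the resistant arrays and 9.89, 9.95 and 10.11 on the parental arrays. The groups stood apart by more than their whole range (difference -0.92, SE 0.10, 1.90-fold, limma adjusted p = 2.52e-04). A second NOP16 probe gave -1.11 (limma adjusted p = 1.78e-04 over 14197 named probes). RRP1, a nucleolar factor of large subunit precursors, measured 6.81, 6.99 and 6.76 in resistant cells and 7.65, 7.48 and 7.76 in parental cells, with no overlap (difference -0.77, SE 0.10, limma adjusted p = 6.26e-04). Without background correction its difference was -0.46.

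PPAN, the human relative of the yeast large subunit factor SSF1, measured 6.78, 6.77 and 6.89 in resistant cells and 7.67, 7.51 and 7.56 in parental cells. Both groups were tight and apart (difference -0.77, SE 0.08, limma adjusted p = 2.14e-04), and without background correction the difference was -0.46. PPAN overlaps the read-through gene PPAN-P2RY11 in the gene table, and transcripts of the 2 genes were not told apart here. MRTO4, a stand-in for the stalk protein P0 in nuclear precursors, measured 8.86, 9.13 and 8.93 in resistant cells and 9.66, 9.57 and 9.45 in parental cells. The groups did not overlap (difference -0.59, SE 0.10, limma adjusted p = 0.00211).

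RRP15 fell by 0.55, the methyltransferase NOP2, which marks a cytosine of 28S RNA, by 0.52, RRP8, which methylates an adenine of 28S RNA, by 0.45, and NIP7 by 0.32. The factors of the PeBoW complex, which is needed to mature 5.8S and 28S RNA, were not called. PES1, WDR12 and BOP1 had differences of -0.04, -0.11 and 0.20, and none passed the threshold (limma adjusted p = 0.79, 0.308 and 0.0844). BOP1 measured 11.11, 11.26 and 11.29 in resistant cells and 11.06, 10.95 and 11.04 in parental cells. All its resistant values lay above its parental values, and it was called higher without background correction, with the deposited log2 values and without resistant replicate 1 (limma adjusted p = 0.0239, 0.0481 and 0.0452), while under median scaling its difference was -0.0042. WDR74, a factor of large subunit precursors, had a difference of -0.11 with overlapping groups. RRP1B, a paralogue of RRP1, measured 8.002, 7.85 and 7.36 in resistant cells and 8.05, 8.18 and 8.04 in parental cells. All resistant values were lower but spread widely (difference -0.36, SE 0.16, limma adjusted p = 0.0979). The difference was -0.17 without resistant replicate 3 (adjusted p = 0.213) and -0.49 without resistant replicate 1, where it passed (adjusted p = 0.0373), as it did in 5 of 15 other settings in all.

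**Figure D3:**
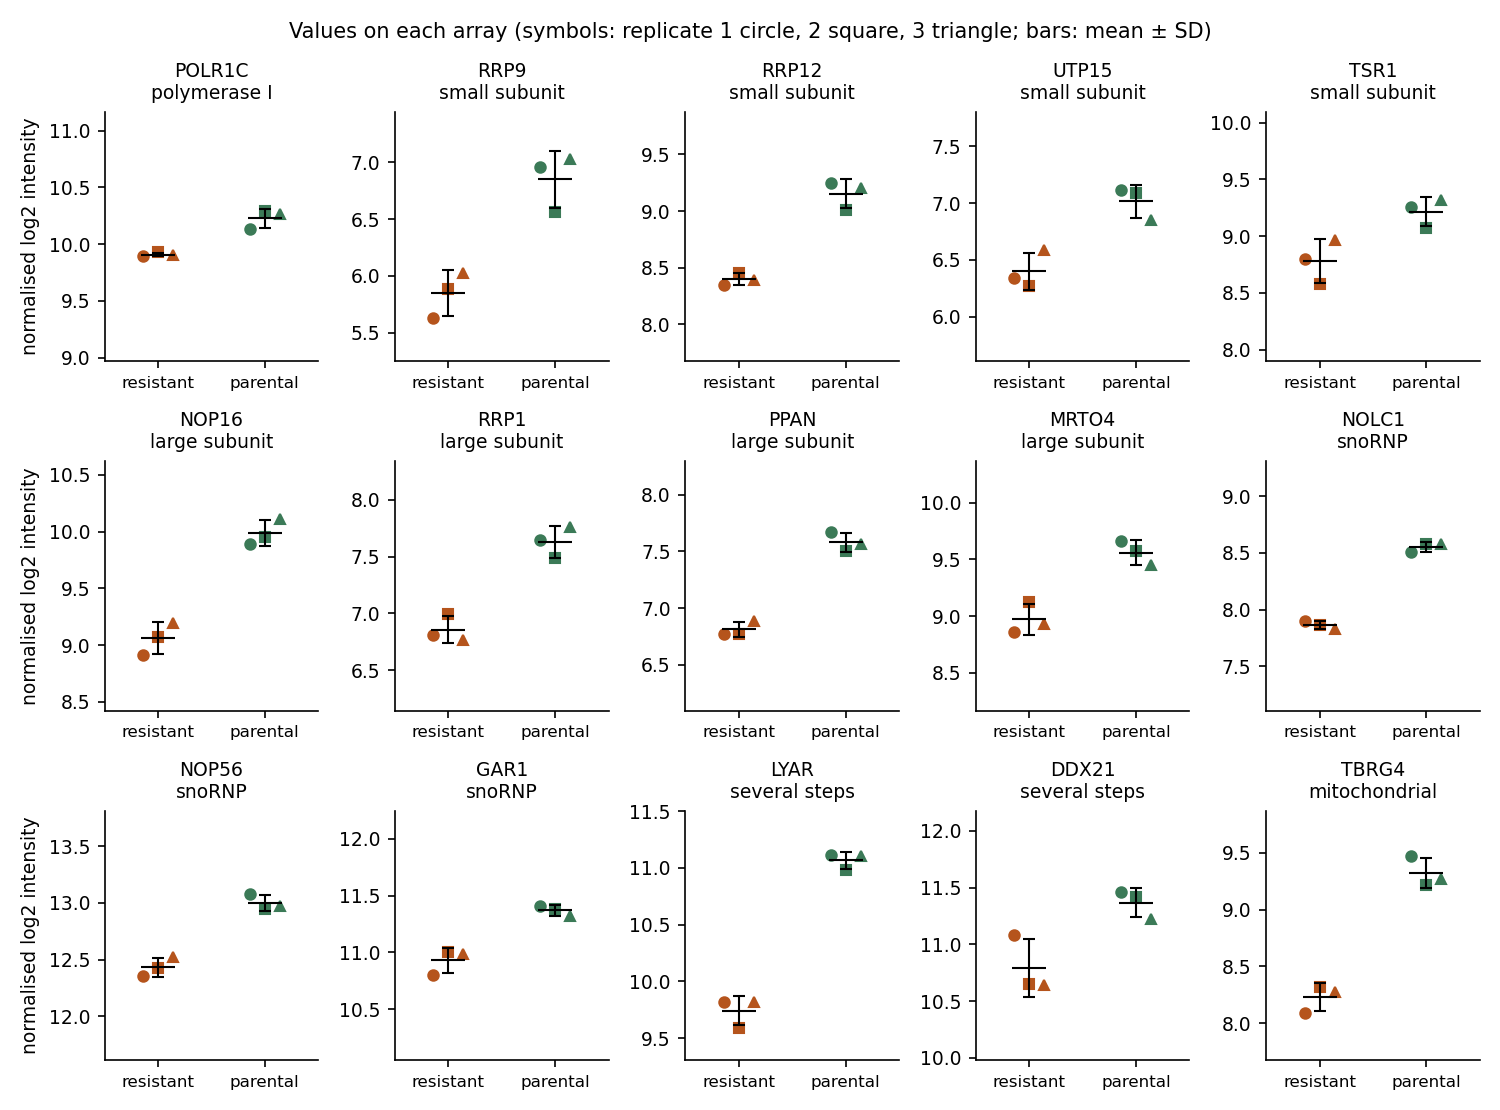
Normalised log2 intensity on each array for 15 factors that fell, with 3 resistant arrays on the left and 3 parental arrays on the right of each panel. Symbols mark the replicate number, horizontal bars the mean and vertical bars the SD, and every panel spans the same range of log2 units. In each panel all resistant values lie below all parental values, with the widest gap in LYAR and narrow gaps in TSR1 and DDX21.

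Of the snoRNP proteins 7 of 8 were called lower, all but NOP58. NOLC1, the nucleolar chaperone that binds both kinds of particle on their way to the nucleolus, measured 7.90, 7.86 and 7.83 on the resistant arrays and 8.50, 8.58 and 8.58 on the parental arrays. The replicates differed by less than 0.1 within each group and the groups were far apart (difference -0.69, SE 0.07, limma adjusted p = 2.10e-04). NOP56, a core protein of box C/D particles, measured 12.35, 12.42 and 12.52 in resistant cells and 13.08, 12.94 and 12.97 in parental cells. Its difference was -0.56 (SE 0.08, limma adjusted p = 0.00107), and 2 dimmer probes both gave -0.70. The NOP56 gene hosts several small nucleolar RNAs in its introns, which these probes do not measure separately.

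The other box C/D proteins on the list had smaller differences. SNU13, a further core protein of these particles that is not on the list, rose by 0.42 (limma adjusted p = 0.00568). FBL, the methyltransferase of the particle, fell by 0.30 (SE 0.08, limma adjusted p = 0.0208), a call that was lost without resistant replicate 1 (adjusted p = 0.0533), parental replicate 1 (adjusted p = 0.0610) or parental replicate 3 (adjusted p = 0.0772). NOP58, the partner of NOP56, measured 11.79, 11.82 and 11.85 in resistant cells and 12.03, 12.07 and 11.90 in parental cells. The groups did not overlap, but the difference of -0.18 missed the threshold (95% interval -0.36 to 0.01, limma adjusted p = 0.104). It passed without background correction (adjusted p = 0.0341).

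All 4 core proteins of box H/ACA particles, which also stabilise the RNA of telomerase, were called lower. GAR1 measured 10.80, 10.9999 and 10.99 in resistant cells and 11.41, 11.38 and 11.32 in parental cells, without overlap (difference -0.44, SE 0.09, limma adjusted p = 0.00415). DKC1, the pseudouridine synthase, fell by 0.43 (SE 0.08, limma adjusted p = 0.00271), and NHP2 fell by 0.42 (SE 0.09, limma adjusted p = 0.00502). The values of DKC1 were 11.50, 11.47 and 11.47 in resistant cells against 11.96, 11.82 and 11.95 in parental cells, a gap wider than the range within either group. NOP10, the smallest of the 4, fell by 0.22 (limma adjusted p = 0.0454), and this call was weak. It was lost in 10 of 15 other settings, including each of the 6 that left out 1 array (adjusted p = 0.0521 to 0.125). A second probe of NOP10 gave -0.13 and did not pass the threshold.

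Among the proteins that act at several steps LYAR changed most, and it had the largest fall of the whole list. LYAR is a nucleolar zinc finger protein that promotes early processing of ribosomal RNA and is also known for transcriptional roles. It measured 9.82, 9.59 and 9.82 on the resistant arrays and 11.12, 10.98 and 11.11 on the parental arrays. The gap between the groups was wider than the range within either, and the mean level was 2.51-fold lower (difference -1.32, SE 0.09, limma adjusted p = 2.72e-05). A second LYAR probe gave -1.28. DDX21, an RNA helicase that links polymerase I transcription with processing, measured 11.08, 10.65 and 10.64 in resistant cells and 11.46, 11.41 and 11.22 in parental cells. Resistant replicate 1 lay close to the lowest parental value (difference -0.58, SE 0.14, limma adjusted p = 0.00956). Nucleolin (NCL), an abundant nucleolar protein, measured 12.15, 12.20 and 12.26 in resistant cells and 12.28, 12.27 and 12.32 in parental cells. Its difference was -0.08 (95% interval -0.25 to 0.09), not past the threshold, and a dimmer probe gave -0.03.

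TBRG4, also on the list, encodes a mitochondrial RNA-binding protein of the FASTK family and is not known as a factor of the nucleolus. It measured 8.09, 8.32 and 8.27 in resistant cells and 9.47, 9.22 and 9.27 in parental cells, without overlap (difference -1.09, SE 0.10, 2.13-fold, limma adjusted p = 1.10e-04). The fall was seen with all 3 of its probes, at -0.90, -1.09 and -1.43. Without TBRG4 the counts were 24 of 40 lower and 0 higher, with a median of -0.39.

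Where a factor had several probes, they mostly gave the same picture. Of the 69 probes 64 passed the detection filter, and in a fit over all 14197 named probes 39 of them were lower and 0 higher, where 21.8% of all named probes were lower and 20.8% higher. Of the 15 factors with several probes that passed, 7 were lower with every one: POLR1C, NOP16, NOP56, NHP2, GAR1, LYAR and TBRG4. In 3 some probes were lower, namely NOP14, TSR1 and NOP2, and in 5 none was called: POLR1B, POLR1E, WDR12, NCL and NOP10. NOP10 was called lower in the fit over genes. In the fit over probes its 2 probes gave -0.22 and -0.13 and neither passed (limma adjusted p = 0.0549 and 0.203). NHP2 gave -0.45 to -0.39 over its 4 probes and GAR1 gave -0.66 to -0.44 over its 4. No probe of a factor came from the rows of the deposited table in which columns were exchanged.

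**Figure D4:**
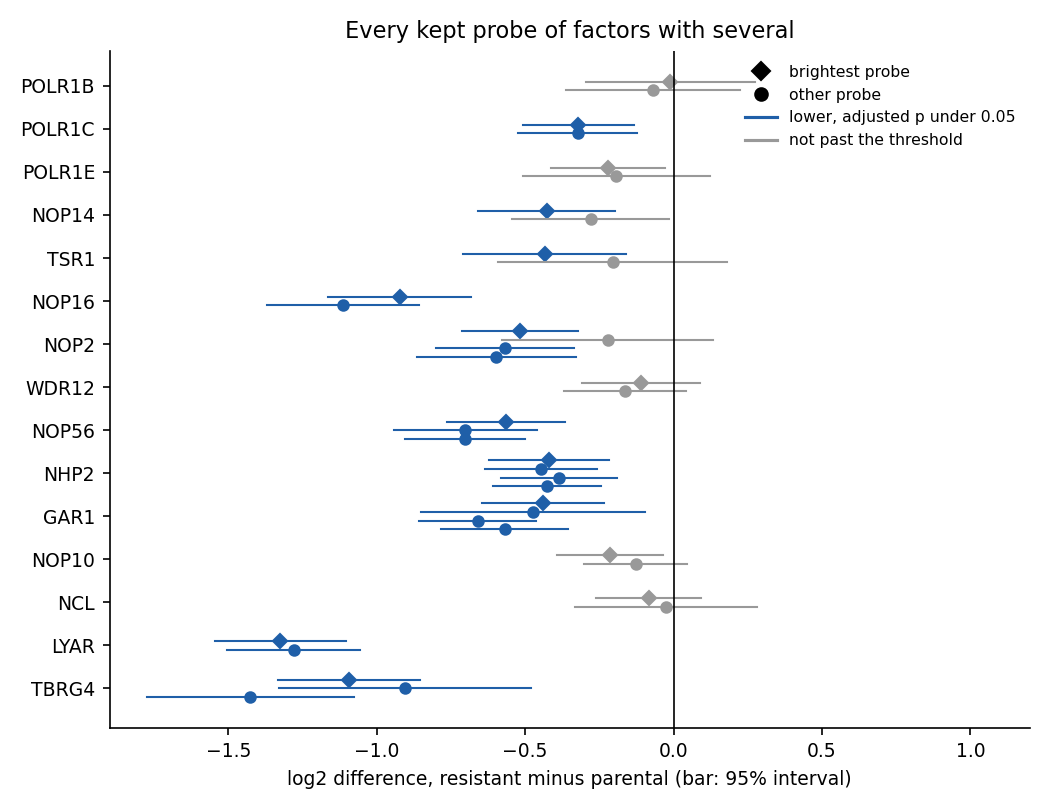
Log2 difference, resistant minus parental, of every probe that passed the detection filter for the 15 factors with more than 1. Diamonds mark the brightest probe, circles the others, bars 95% intervals, blue an adjusted p under 0.05 over all named probes and grey the rest. The probes of LYAR, NOP16, NOP56, NHP2 and GAR1 lie together on the negative side, whereas those of POLR1B and NCL lie near 0.

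The differences of the factors were also set against those of the genes beside them. For each factor up to 10 of the nearest measured genes on each side, other factors left out, were taken from the gene order of GRCh38.p14. DKC1, on chromosome X, had 19 neighbours. All 41 factors had a difference below the median of their neighbours, where 50.1% of all measured genes did. The median of factor minus neighbours was -0.41. The difference of a factor and the median of its neighbours correlated across the 41 factors (Pearson r = 0.75, a description, since neighbouring factors share genes), and across all measured genes r was 0.32. The 25 factors that fell lie on 16 chromosomes.

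Several factors that were not called lay among genes that were higher. Of the 16 factors not called 9 had a neighbour median above 0.2, and of the 25 that fell 2 did, POLR1C and FBL. PES1 and RRP7A lie on chromosome 22 among neighbours with medians of 0.54 and 0.44, and BOP1 lies on chromosome 8 among neighbours with a median of 0.44, of which 15 of 20 were called higher. NCL, WDR12, NOP58, WDR75 and POLR1A, all on chromosome 2, had neighbour medians from 0.21 to 0.26, and POLR1B, on the same chromosome, had 0.06. TBRG4 lies on chromosome 7 among neighbours of which 16 of 20 were called lower (median -0.68), and NOP56 on chromosome 20 among neighbours of which 12 of 20 were (median -0.41). RRP9 and NOP16 each had neighbours with a median of -0.30, whereas LYAR had neighbours at -0.00082. The part of gene position in these differences was not tested.

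**Figure D5:**
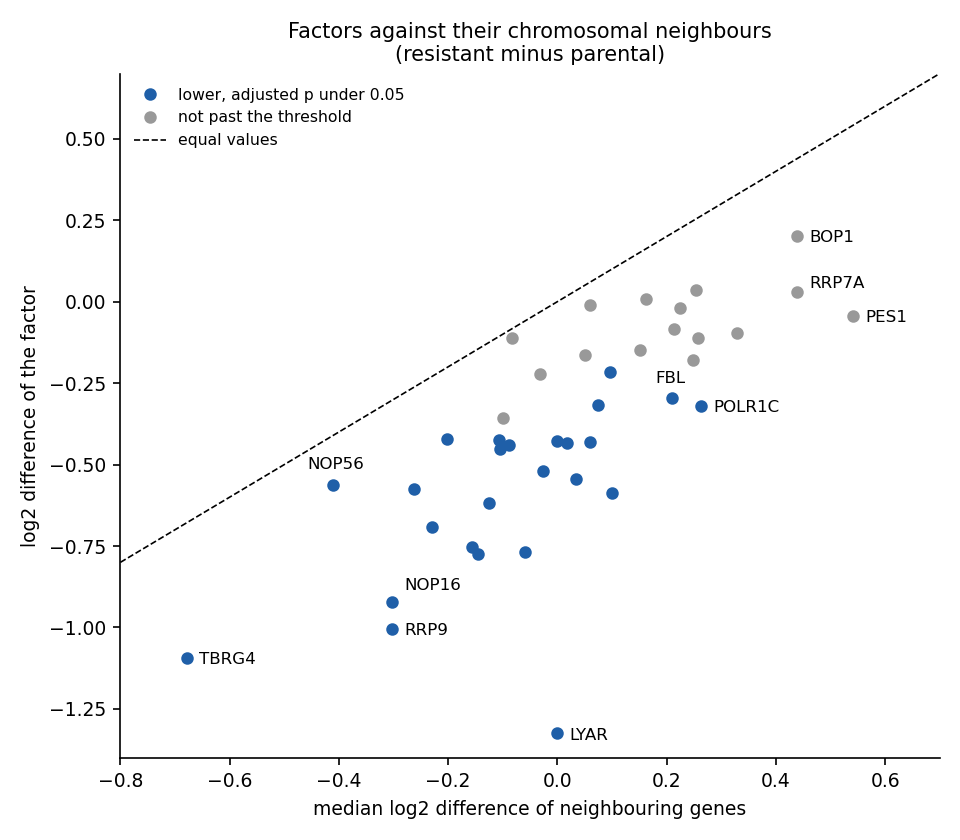
Log2 difference of each of the 41 factors (vertical axis) against the median log2 difference of the nearest measured genes on its chromosome (horizontal axis), both resistant minus parental. Blue points passed an adjusted p of 0.05, grey points did not, and the dashed line marks equal values. All 41 points lie below the line, with PES1, RRP7A and BOP1 at the right and TBRG4 at the left.

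Other genes of the pathway, taken from lists of further factors for the same steps, were called in both directions. Of 105 measured genes 43 fell and 6 rose, beside the 23% and 22.3% of all genes, with a median difference of -0.22, and 86 of the 105 lay below the median of their neighbours. Around polymerase I 5 of 11 fell and 0 rose. POLR1F, the stalk subunit, fell by 1.28 and lies on chromosome 7 among neighbours with a median of -0.52. The subunits POLR1G and POLR1H also fell (differences -0.29 and -0.27), and the subunit POLR1D was not called (difference -0.14). TAF1A and TAF1B, subunits of the selectivity factor that places the enzyme on the ribosomal promoter, fell by 0.56 and 0.39. TAF1C and TAF1D, of the same factor, were not called (differences -0.01 and -0.06). The neighbours of POLR1G, POLR1H, TAF1A and TAF1B, which fell, had medians of 0.23, 0.32, 0.03 and 0.25.

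Of the other small subunit genes 17 of 41 fell (41.5%, beside 23% of all genes) and 1 rose (2.44%, beside 22.3%). The median difference was -0.19. The methyltransferase EMG1 fell by 0.97, NGDN by 0.72 and the acetyltransferase NAT10 by 0.64. Their neighbours had medians of -0.07, -0.0022 and 0.11. The member that rose, PNO1, named after its value was seen, had a difference of 0.21, among neighbours with a median of 0.27. Of the other large subunit genes 18 of 44 fell (40.9%) and 4 rose (9.09%), with a median difference of -0.26. The helicase DDX56 fell by 1.27, on chromosome 7 among neighbours with a median of -0.74. PELP1 fell by 0.94 and the GTPase GTPBP4 by 0.74, among neighbours with medians of -0.12 and -0.15. Those that rose were DDX24, DDX54, CEBPZ and NIFK (differences 0.41, 0.37, 0.34 and 0.22). Their neighbours had medians of 0.04, -0.06, 0.31 and 0.32. Of the other snoRNP genes 3 of 9 fell (33.3%) and 1 rose (11.1%), with a median difference of -0.07. That median is nearer to that of all genes (-0.0039) than the -0.43 of the snoRNP proteins on the list. The assembly ATPase RUVBL1 fell by 0.82, among neighbours with a median of -0.10. NAF1, which precedes GAR1 in box H/ACA particles, fell by 0.46, among neighbours with a median of 0.02. SNU13, a core protein of box C/D particles, rose by 0.42 and lies on chromosome 22 among neighbours with a median of 0.37. The part of gene position in the differences of these other genes was not tested.

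Genes of cell division were also examined. Of 12 proliferation genes 8 fell and 1 rose, where 23% of all genes were called lower and 22.3% higher, with a median difference of -0.40, among them MKI67, with a fall of 0.84, and CDK1, with a fall of 0.65. BIRC5 was the one that rose, by 0.29. The part of growth rate in the lower levels of the ribosome biogenesis factors was not tested.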

How the data were processed

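Total RNA was labelled as biotinylated cRNA and hybridised to Illumina arrays, per the labels' protocols. The authors deposited raw intensity values with detection p-values for 47225 probes on 6 arrays, and a second table of log2 values, with no normalisation named in the labels. These deposited values had array medians of 6.98 to 6.99 and the same rank order as the intensities (rank correlation 1), so their scale is log2 without centring of genes. In 3269 rows the deposited intensity and detection columns were exchanged and the intensity was given as its natural log, as the rank order shows, and these rows were restored.

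Intensities were background corrected with normexp from the detection p-values (offset 16), quantile normalised and log2 transformed by neqc of the limma package, version 3.58.1, under R 4.3.3. Kept probes had a detection p under 0.05 on every array of 1 or both groups. Gene names were those of the array's annotation, brought to GRCh38.p14 symbols through gene identifiers: 30111 probes had 1 gene, 8 several and 17106 none listed. A gene was represented by its brightest kept probe, chosen by mean over all arrays. Resistant and parental arrays were compared by lmFit and eBayes, without covariate, two-sided, with Benjamini-Hochberg adjustment over all 10672 genes. The functions were tested on simulated data. Changes of 1.5-fold were recovered in 23 of 66 genes, of 2-fold in 50 of 66 and of 4-fold in 64 of 66. Of 10803 unchanged genes 9 were called. A factor that was not called may thus still differ by a small amount.

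The factors and the other lists were chosen with earlier results of these data known. All factors are named. Values on every array are given for up to 4 called factors with the largest change for each subunit and up to 3 for other steps. They are also given for DKC1, outside that rule, and for uncalled factors singled out after their values were seen. Of other pathway lists up to 3 called genes with the largest change are named, and further genes were named after their values were seen. The labels and headers used here name no batch.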

Additional observations from a re-analysis of the deposited data

How the results depend on the processing

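Across 15 alternative settings, counts of factors lower ran from 22 to 33, beside 25 in the main fit. The share of all genes called lower ran from 10.6% without the detection filter to 35.4% under median scaling, the setting with 33 factors lower. Of the 25 factors that fell 21 did so in every setting run for them. The exceptions were UTP20, TSR1, FBL and NOP10. The count of factors higher, 0 in the limma fit with 1 factor (BOP1) at an unadjusted p under 0.05 in that direction, was 1 without background correction and 1 with the deposited log2 values, and 0 to 1 when 1 array was left out. The median difference was -0.30 without background correction, -0.31 with a normexp offset of 50, -0.30 with the deposited values, -0.35 with the mean over probes and -0.52 under median scaling, and ran from -0.41 to -0.32 when 1 array was left out. Counts of factors lower ran from 22 to 24 and of probes lower from 33 to 38 when 1 array was left out. In those fits 18.5% to 20.6% of all genes were called lower.

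Same-numbered samples deviated from their group means with correlations of -0.07, -0.0012 and 0.05, and differently numbered samples with -0.13 to 0.12. With 3 arrays per group these values cannot show whether the samples were paired. With the replicate block 24 factors and 38 probes were lower, beside 21.7% of all genes, and the median of the factors was -0.42. The only call that changed was that of NOP10 (limma adjusted p = 0.0848). Signs turned only for factors that had not passed the threshold: under median scaling RRP7A had a difference of -0.14, WDR75 -0.15, BYSL -0.17 and BOP1 -0.0042. When 1 array was left out POLR1A ran from -0.0921 to 0.0299, POLR1B from -0.0859 to 0.0916, RRP7A from -0.0180 to 0.0844, BYSL from -0.0543 to 0.10, PES1 from -0.14 to 0.0664 and WDR74 from -0.23 to 0.0307. The causes were not tested. Dim probes such as those of RRP9 and UTP20 depend most on the background correction, which the number of arrays and signal over background limit.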

Other observations

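The nuclear exosome, the nuclease complex that trims ribosomal RNA precursors and other nuclear RNAs, changed in both directions. Of 11 measured genes 7 fell and 2 rose, where 23% of all genes were called lower and 22.3% higher, and the median difference was -0.32. EXOSC3, a cap protein of the complex, fell by 0.73 (SE 0.08, limma adjusted p = 2.73e-04), EXOSC7, a barrel subunit, fell by 0.63, and the helicase MTREX, which feeds RNA into the complex, fell by 0.59. EXOSC6 rose by 0.55 and EXOSC4 rose by 0.27.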
